A study of Mus musculus with 6 samples.

Results

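The genes described here are 33 genes that interferons induce, chosen by name from the 37991 gene rows of each count table. All 33 had a row, and 31 had enough counts to be tested. Mx2 and Cxcl10 did not. They were read in 6 RNA sequencing libraries from the cecum of 3 HBUS mice, taken after 60 weeks. One library of each mouse came from a serrated polyp, a growth with saw-toothed crypts, and the other from the normal distal cecum around it. The HBUS strain expresses HB-EGF, a growth factor, and US28, a chemokine receptor encoded by cytomegalovirus, from transgenes in the intestinal epithelium. Both groups share the transgenes, and no animal without them was analysed here. The comparison asked how polyp tissue differs from its surroundings within the animal. Mx1 and Mx2 belong to the set by name, although their proteins are themselves dynamin-like GTPases.

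Interferons are secreted when cells sense foreign nucleic acid or when T and NK cells are activated. Type I and type III interferons act through a complex that includes STAT2 and IRF9 and binds interferon-stimulated response elements in DNA. Type II interferon (interferon gamma) acts through gamma-activated sites in DNA, and through IRF1. In the gut, epithelial cells respond to all types, and their interferon-induced genes restrict viruses, present antigen and degrade tryptophan.

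These elements can be read in the promoters. RefSeq windows of assembly GRCm38.p6, from 250 bases before to 50 bases after a transcript start, were found for 25 of the 33 genes. The core of the interferon-stimulated response element, GAAA followed by any 2 bases and a second GAAA, searched on both strands, stood in the windows of 11 of these 25 genes (44%), against 3.99% of all 27025 genes with a window. They were Bst2, Cxcl10, Ddx58, Eif2ak2, Ifih1, Ifit1, Ifit3, Isg15, Oas1a, Rsad2 and Stat2. The gamma-activated site core, TTCNNNGAA, which reads the same on both strands, stood in the windows of 8 genes (32%), against 9.55% of all genes. They were Adar, Bst2, Eif2ak2, Ifi35, Ifit2, Irf1, Irf8 and Oas1a. Cores of both kinds overlap each other in the Bst2 window, where only the response element cores are capitalized. A match describes the letters and not binding. Dhx58, Ido1, Mx1, Mx2, Parp9, Parp14, Usp18 and Zbp1 had no window. The 6 stretches shown here lie wholly before the first base of the transcript and run 5′ to 3′ along the gene's strand, with the cores in capitals. The first 4 hold response element cores and belong to antiviral genes with and without very low values in 1 polyp. The last 2 hold gamma-activated cores and belong to transcription factor genes that were lower in each polyp than around it. The core and that pattern did not go together throughout. Irf9 and Sp100 were also lower in each polyp without this core in their windows. Adar and Ifit2 have it and were not lower in each polyp.
Ifit1: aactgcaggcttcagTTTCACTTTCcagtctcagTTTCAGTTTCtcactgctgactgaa
Rsad2: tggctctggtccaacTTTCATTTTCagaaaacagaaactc
Isg15: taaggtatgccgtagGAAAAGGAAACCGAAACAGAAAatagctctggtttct
Bst2: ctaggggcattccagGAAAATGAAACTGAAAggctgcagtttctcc
Irf1: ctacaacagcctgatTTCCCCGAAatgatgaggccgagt
Irf8: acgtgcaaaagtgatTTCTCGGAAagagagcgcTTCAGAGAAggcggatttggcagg

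The Ifit1 stretch is chr19:34640770-34640828 on the plus strand (positions -119 to -61 from the start) and holds 2 cores, both read on the opposite strand. The Rsad2 stretch is chr12:26456548-26456587 on the minus strand (-135 to -96) with 1 core, also on the opposite strand. The Isg15 stretch, chr4:156200860-156200911 on the minus strand (-93 to -42), has 3 overlapping cores in a row, and that of Bst2, chr8:71537572-71537617 on the minus strand (-145 to -100), has 2. For Irf1 the stretch is chr11:53769909-53769947 on the plus strand (-105 to -67) with 1 core, and for Irf8 it is chr8:120736172-120736228 on the plus strand (-186 to -130) with 2.

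Of the 31 interferon response genes tested, 1 fell in polyps and 0 rose (edgeR's quasi-likelihood test, paired by mouse, adjusted p under 0.05). The gene that fell was Ido1. Over all 10960 genes tested, 1.04% fell and 1.72% rose, 2.76% in either direction, and 1 gene of 31 is close to that background. Of 31 log2 fold changes (polyp over surrounding tissue), 29 were negative, as were 5650 of the 10960 genes tested. The median was -0.60 against -0.02 over all genes. In mice 1119, 1192 and 1199, 13, 30 and 25 of the 31 were lower in the polyp. Of all genes, 5380, 5610 and 5288 were. The 31 estimates come from the same libraries, so their signs are not independent. At an unadjusted p under 0.05, 9 were lower and 0 higher, where 6.27% and 8.29% of all genes were. DESeq2 and limma-voom each called 2 lower and 0 higher. Of all genes, DESeq2 called 210 lower and 326 higher, and limma-voom 188 lower and 299 higher. Without the pairing edgeR called 0. The median was -1.06, -0.23 and -0.69 without mouse 1119, 1192 or 1199.

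Library totals ran from 6632645 to 13350119 counts, of which 46.3% to 75.3% were mitochondrial rRNA. In a tested interferon response gene the count per library lay between 1 and 2207. Levels are given as CPM, counts scaled to library size after normalization for composition. At an equal depth of 1852065 counts beside mitochondrial rRNA, 12334 genes were detected in the polyp of mouse 1192 and 14284 to 16082 in the other libraries. The surrounding tissue of mouse 1199 had the highest share of mitochondrial rRNA, the fewest other counts (1852065) and a TMM normalization factor of 0.593, against 0.973 to 1.43 in the others. Both libraries stand apart from the rest in these measures.

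**Figure D1:**
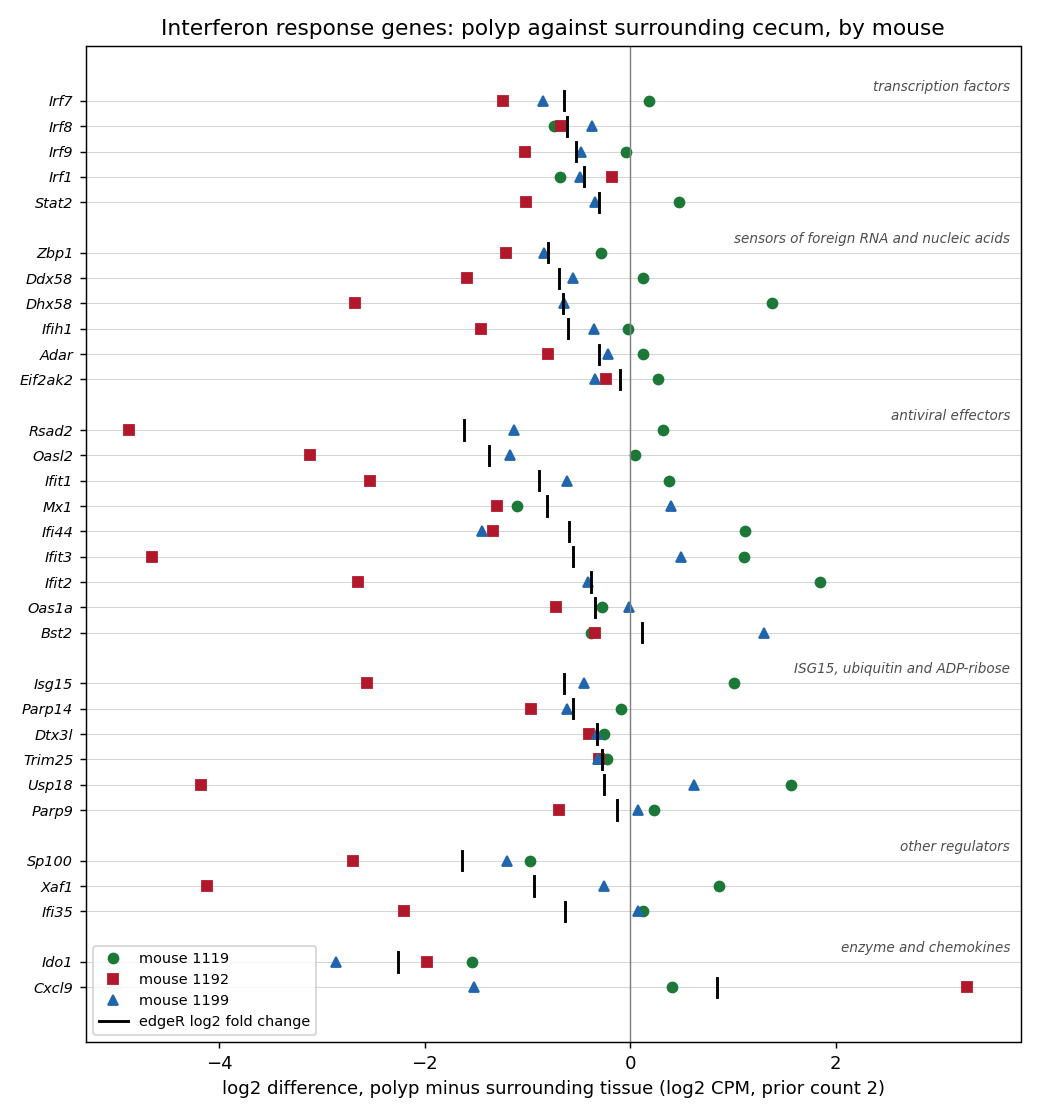
Log2 difference between polyp and surrounding tissue (x axis, log2 CPM with a prior count of 2) for the 31 tested genes, by role. Symbols stand for the 3 mice and the black bar for the edgeR log2 fold change; 30 of the 31 genes lay below 0 in mouse 1192, 25 in mouse 1199 and 13 in mouse 1119.

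Ido1 (ENSMUSG00000031551), the tryptophan-degrading enzyme that interferon gamma induces strongly, was measured at 4.64, 9.4 and 30.4 CPM in the surrounding tissue of mice 1119, 1192 and 1199 and 1.45, 2.22 and 3.98 CPM in their polyps. Every polyp was below every surrounding sample, and the surrounding tissue of mouse 1199 was the highest of the 6. Ido1 fell 4.8-fold (log2 fold change -2.26 ± 0.38, adjusted p = 0.0213), from 14.8 ± 13.7 to 2.55 ± 1.3 CPM (mean ± SD, n = 3). It was lower in 3 of 3 mice, with log2 differences of -1.55, -1.98 and -2.87. The call held without mouse 1119 or 1192 (adjusted p = 0.0412 and 0.0166) and was lost without mouse 1199 (-1.90, adjusted p = 0.346) and without the pairing (adjusted p = 0.17). These are whole tissues, in which fewer cells of a type and less RNA per cell cannot be told apart. Summed levels of 15 T and NK cell markers ran from 9.38 to 20.5 CPM in surrounding tissue and 4.35 to 6.12 CPM in polyps, without overlap. Tbx21 was at 0 in all libraries. Of 3 tested markers 0 passed edgeR, DESeq2 called 1 and limma-voom 0. At an unadjusted edgeR p under 0.05, 1 was lower, the granzyme gene Gzma, as were 6.27% of all genes. The part of these cells in the Ido1 result was not tested.

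IDO1 starts the kynurenine pathway, the main route of tryptophan breakdown. A list of 21 genes covered tryptophan use and uptake, the aryl hydrocarbon receptor gene Ahr, and its repressor and target genes. Of these 8 were tested, 1 fell (Ido1 itself) and 0 rose. The sister gene Ido2 had 0.379, 1.28 and 0.225 CPM in surrounding tissue and 0.242, 0 and 0.853 in polyps. Wars, the tryptophan tRNA synthetase gene that interferon gamma also induces, had 30.2, 25 and 42.1 CPM in surrounding tissue and 25, 45.2 and 36 CPM in polyps, in the same order of mice (log2 fold change 0.13 ± 0.25, adjusted p = 0.865). Its samples overlap, with the polyp of mouse 1192 the highest. Cxcl9, a chemokine gene that interferon gamma induces and that attracts T cells, had 0.947, 0.0712 and 4.06 CPM in surrounding tissue and 1.33, 2.55 and 1.28 CPM in polyps, in the same order of mice. It was 1 count in the surrounding tissue of mouse 1192 and 31 in its polyp, a ratio of 35.8 with an exact 95% counting interval of 5.97 to 1459. In mouse 1199 it was lower in the polyp, and it did not pass (log2 fold change 0.85 ± 1.41, adjusted p = 0.838). Counts of its neighbour Cxcl10 were 0, 12 and 5 in surrounding tissue and 0, 0 and 5 in polyps, too few to test.

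**Figure D2:**
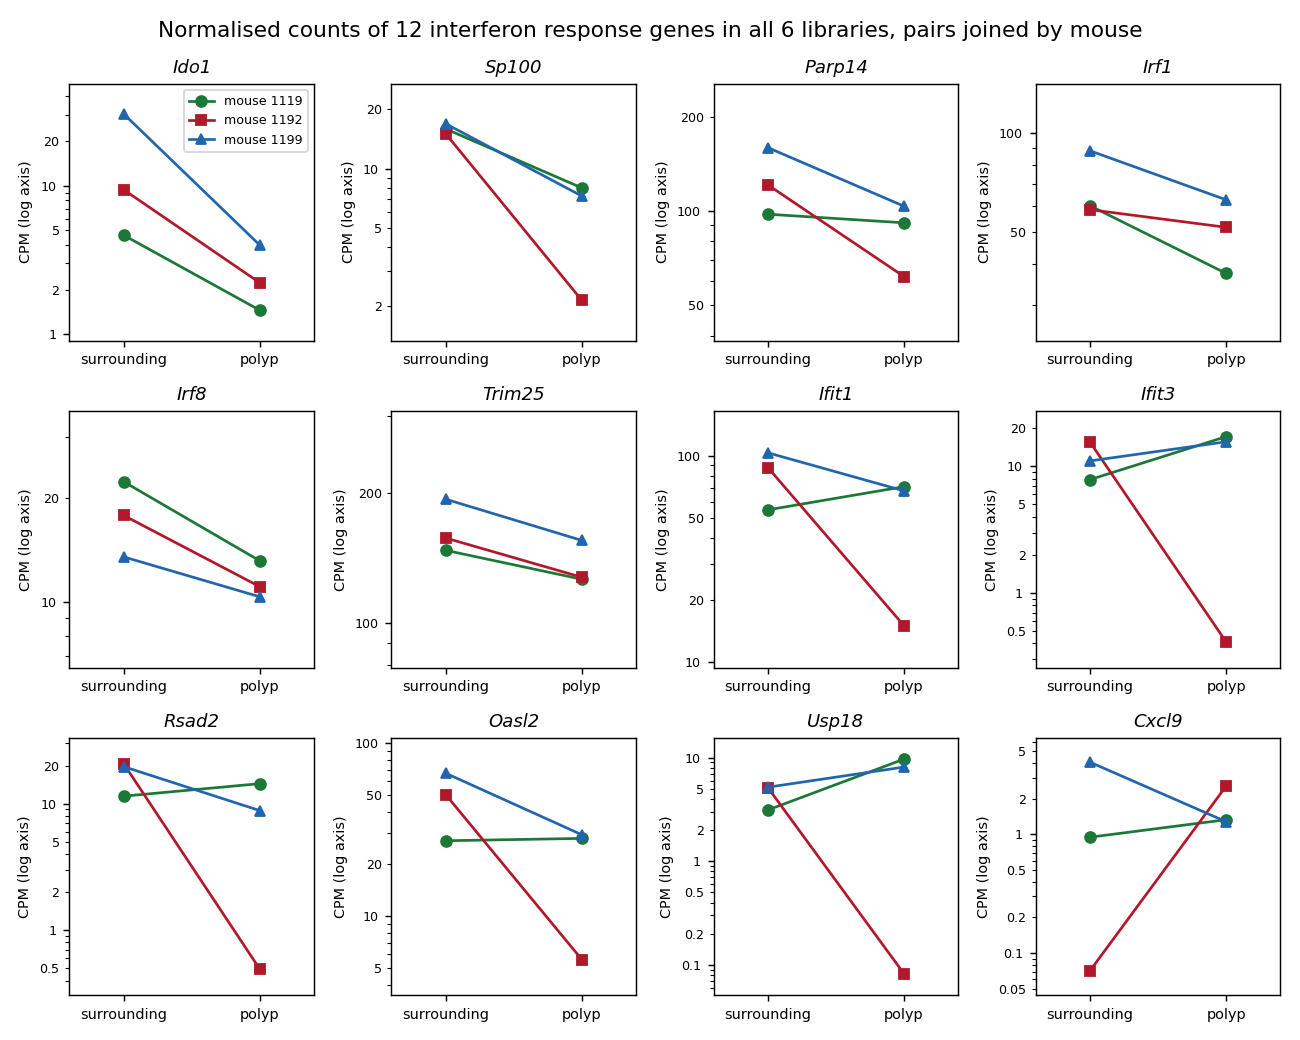
CPM (log axis) of 12 interferon response genes in all 6 libraries, with the surrounding tissue and polyp of a mouse joined by a line. Ido1 is lower in all 3 polyps, Trim25 differs little in any mouse, and Ifit1, Ifit3, Rsad2, Oasl2 and Usp18 have their lowest value in the polyp of mouse 1192.

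None of the 5 transcription factor genes passed edgeR, and 0 were called by DESeq2 or limma-voom. At an unadjusted edgeR p under 0.05, 3 were lower, as were 6.27% of all genes. All 5 estimates were negative, from -0.65 to -0.30. Irf1, the factor that carries much of the interferon gamma response, had 60.1, 58.5 and 88.4 CPM in the surrounding tissue of mice 1119, 1192 and 1199 and 37.5, 51.7 and 62.7 CPM in their polyps. It was lower in each polyp than in the tissue around it, although the groups overlap because the polyp of mouse 1199 exceeded the surrounding tissue of the other mice (log2 fold change -0.45 ± 0.16, adjusted p = 0.233). Irf8, a factor of myeloid cells, B cells and interferon-treated cells, had 22.3, 17.8 and 13.5 CPM in surrounding tissue and 13.2, 11.1 and 10.4 CPM in polyps, in the same order of mice. Its groups do not overlap, which held for 8.58% of all genes in this direction and for 4 of the 31 interferon response genes, the others being Irf9, Sp100 and Ido1 (log2 fold change -0.61 ± 0.25, adjusted p = 0.293). Irf7, which amplifies type I interferon production, had 33, 71.1 and 75.7 CPM in surrounding tissue and 37.4, 30 and 42 CPM in polyps, in the same order of mice. In mouse 1119 the polyp was slightly the higher sample, and in the other mice the lower (log2 fold change -0.65 ± 0.26, adjusted p = 0.294). Irf9 and Stat2, whose proteins bind response elements together, had log2 fold changes of -0.53 ± 0.25 and -0.30 ± 0.28. Stat2 was higher in the polyp of mouse 1119 (0.47) and lower in that of mouse 1192 (-1.01). Reads of Irf9 and of its neighbour Rnf31 may not have been told apart everywhere, since their annotated exons overlap on the same strand.

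Among 6 genes for sensors of foreign or altered nucleic acid, 0 passed edgeR, and 0 were called by DESeq2 or limma-voom. At an unadjusted edgeR p under 0.05, 2 were lower, as were 6.27% of all genes. Ifih1, which encodes the double-stranded RNA sensor MDA5, had 83.3, 107 and 110.2 CPM in the surrounding tissue of mice 1119, 1192 and 1199 and 82.1, 39 and 86.2 CPM in their polyps. Most samples lay close together, and the polyp of mouse 1192 stood below the rest (log2 fold change -0.61 ± 0.26, adjusted p = 0.33, and -0.23 without that mouse). Zbp1, a sensor of Z-form nucleic acid that can start cell death, had 7.39, 7.69 and 16.2 CPM in surrounding tissue and 6.04, 3.21 and 8.96 CPM in polyps, in the same order of mice. It was lower in each polyp than in its own surroundings (log2 fold change -0.80 ± 0.34, adjusted p = 0.327). Ddx58, the gene of the RNA sensor RIG-I, and Dhx58, the gene of its relative LGP2, had log2 fold changes of -0.69 ± 0.35 and -0.66 ± 0.77. For Dhx58 the mice pointed in opposite directions, with 1.38 in mouse 1119 and -2.68 in mouse 1192. An antisense gene overlaps its exons, so reads there may have been counted for the wrong gene or left out. Eif2ak2, the kinase PKR that halts translation on double-stranded RNA, was at -0.10 ± 0.20. Adar, which edits such RNA, was at -0.30 ± 0.22, and its exons overlap those of Chrnb2 on the other strand.

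The antiviral effector genes block viral replication inside the cell, and their differences varied between mice. None of 9 tested passed (0 at an unadjusted p under 0.05 in edgeR, and 0 called by DESeq2 or limma-voom), and their median difference was 0.32, -2.54 and -0.41 in mice 1119, 1192 and 1199. Ifit1, which binds viral RNA that lacks the host cap methylation, had 54.7, 87.9 and 104 CPM in the surrounding tissue of mice 1119, 1192 and 1199 and 71, 15 and 67.7 CPM in their polyps. The polyp of mouse 1192 was well below the other 5 samples, which overlap (log2 fold change -0.89 ± 0.63, adjusted p = 0.622). Rsad2, the gene of viperin, an enzyme that makes an antiviral nucleotide, had 11.5, 20.6 and 19.6 CPM in surrounding tissue and 14.4, 0.493 and 8.82 CPM in polyps, in the same order of mice. Its count in the polyp of mouse 1192 was 6, against 290 in the tissue around it. Ifit3, a partner of Ifit1, had 7.86, 15.5 and 11 CPM in surrounding tissue and 17.2, 0.411 and 15.6 CPM in polyps, in the same order of mice. Here the polyps of mice 1119 and 1199 were higher than their surroundings and the polyp of mouse 1192, with 5 counts, was the lowest. Mouse Ifit3 has a close copy beside it, so some of its reads may be assigned elsewhere.

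Oasl2, a gene of the oligoadenylate synthetase family that senses double-stranded RNA, had 27.2, 50.1 and 66.7 CPM in the surrounding tissue of mice 1119, 1192 and 1199 and 28, 5.59 and 29.4 CPM in their polyps. Mice 1192 and 1199 had lower polyps and in mouse 1119 both samples were nearly equal (log2 fold change -1.37 ± 0.67, adjusted p = 0.475). Ifit2, of the same family as Ifit1, had a log2 difference of 1.85 in mouse 1119 and -2.65 in mouse 1192. Oas1a, another synthetase gene, differed by -0.28, -0.72 and -0.02 in mice 1119, 1192 and 1199. Ifi44 had a log2 fold change of -0.60 ± 0.55. Bst2, the gene of tetherin, which holds budding virus at the cell surface, was the effector with a positive estimate (0.12 ± 0.83), at 2 to 49 counts per library. Its promoter carries the response element cores shown earlier, as do those of Ifit1 and Rsad2. Mx1, which traps viral particles, was at -0.81 ± 0.92. It had 6 to 30 counts per library, and its near copy Mx2 had 0 to 16.

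In the group of genes for the ubiquitin-like protein ISG15 and for ubiquitin and ADP-ribose transfer, 0 of 6 passed edgeR. DESeq2 and limma-voom called 0. At an unadjusted edgeR p under 0.05, 2 were lower, as were 6.27% of all genes. Parp14, an ADP-ribosyltransferase gene, had 97.7, 121 and 159 CPM in the surrounding tissue of mice 1119, 1192 and 1199 and 91.8, 61.9 and 104 CPM in their polyps. Each polyp was below its surroundings, by little in mouse 1119 (log2 fold change -0.56 ± 0.18, adjusted p = 0.184). Trim25, the ubiquitin ligase that activates RIG-I, had 147, 157 and 193 CPM in surrounding tissue and 126, 128 and 155 CPM in polyps, in the same order of mice. The difference was small and nearly the same in the 3 mice, at -0.22, -0.30 and -0.32 (log2 fold change -0.28 ± 0.13, adjusted p = 0.383). Dtx3l, a ubiquitin ligase that works in a complex with PARP9, had 74.4, 89.6 and 104 CPM in surrounding tissue and 62.5, 67.7 and 83.5 CPM in polyps, in the same order of mice. It too was lower in each polyp by a similar amount (log2 fold change -0.33 ± 0.14, adjusted p = 0.332). Parp9, which lies head to head with Dtx3l and shares exon bases with it on the other strand, was at -0.13 ± 0.20, with a positive difference in mice 1119 and 1199.

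Isg15 and Usp18 had their lowest level in the polyp of mouse 1192, as Ifit1 and Rsad2 did. Isg15 had 2.84, 5.91 and 13.1 CPM in surrounding tissue and 5.92, 0.822 and 9.53 CPM in polyps, in the same order of mice. Its mice spread from 1.01 in mouse 1119 to -2.56 in mouse 1192 (log2 fold change -0.64 ± 0.68, adjusted p = 0.735). Usp18, which removes ISG15 from proteins and dampens type I interferon signalling, had 3.13, 5.13 and 5.18 CPM in surrounding tissue and 9.67, 0.0822 and 8.11 CPM in polyps, in the same order of mice. There were 72 counts in the surrounding tissue of mouse 1192 and 1 in its polyp, a ratio of 62.3 with an exact 95% counting interval of 10.8 to 2496. In mice 1119 and 1199 its polyps were the higher samples, and without mouse 1192 its log2 fold change was 1.12 (adjusted p = 0.259).

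Sp100, a component of nuclear bodies that restrict viral DNA, came second to Ido1 by p. It had 15.9, 15 and 16.9 CPM in the surrounding tissue of mice 1119, 1192 and 1199 and 7.98, 2.14 and 7.25 CPM in their polyps. No polyp reached the level of any surrounding sample, and the surrounding samples were close to each other. Sp100 did not pass edgeR (log2 fold change -1.64 ± 0.40, adjusted p = 0.0804), while DESeq2 and limma-voom called it (adjusted p = 0.0106 and 0.0411). The mouse genome holds related copies of Sp100 sequence, and reads shared among them could not be followed. An annotated rRNA gene also shares 104 exon bases with Sp100 on the same strand. Annotated exons on the other strand overlap those of Irf1, Irf7, Eif2ak2, Usp18, Ifi35 and Cxcl10 as well as of Dhx58, Adar, Dtx3l and Parp9. Reads there may have been counted for the wrong gene or left out, since the counting settings are not given. Xaf1, which promotes cell death, had 1.89, 4.91 and 11.3 CPM in surrounding tissue and 3.63, 0.0822 and 9.39 CPM in polyps, in the same order of mice. With 69 counts against 1 in mouse 1192, its ratio there was 59.7, with an exact 95% counting interval of 10.4 to 2393. Ifi35, an adaptor that binds other interferon-induced proteins, was nearly equal in both tissues of mice 1119 and 1199 (0.12 and 0.08) and at -2.20 in mouse 1192. The counting intervals cover counting error only, and the genes given with all samples for the sake of mouse 1192 (Ifit1, Ifit3, Rsad2, Oasl2, Isg15, Usp18, Xaf1 and Cxcl9) were chosen after their values were seen.

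The median log2 difference over the 31 genes was 0.12, -1.29 and -0.41 in mice 1119, 1192 and 1199. The same medians over all tested genes were 0.01, -0.02 and 0.02. In mouse 1192, 11 of 31 genes were lower in the polyp by at least 2 log2 units, where 7.45% of all tested genes were. In mice 1119 and 1199 this held for 0 and 1 genes, against 2.23% and 1.48% of all. The polyp of mouse 1192 had the lowest level of the 6 libraries for 24 of the 31 genes, and for 25% of all tested genes. The surrounding tissue of mouse 1199 had the highest level for 20 genes, and for 13.6% of all. That library is the one with the fewest counts beside mitochondrial rRNA and the lowest normalization factor, and the part of this in its high values, those of Ido1 included, was not tested. With 1 pair per mouse, the difference between mice could not be tested. The polyp library of mouse 1192 is also the one with the fewest genes detected at equal depth. It had the highest normalization factor (1.43) and the lowest share of mitochondrial rRNA (46.3%) as well. The part of these in the low values was not tested.

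**Figure D3:**
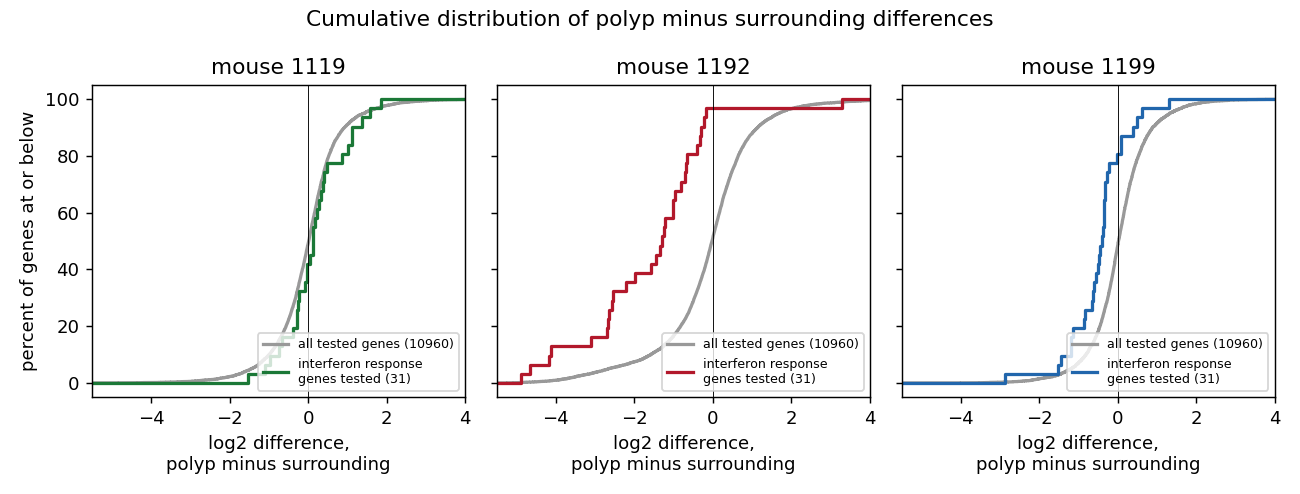
Percent of genes (y axis) at or below a given log2 difference between polyp and surrounding tissue (x axis), for the 31 tested interferon response genes in color and all 10960 tested genes in grey, 1 panel per mouse. The curves lie close together in mouse 1119 and farthest apart in mouse 1192, where the medians were -1.29 and -0.02.

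The estimates were also computed without mouse 1192. Then 10 of 31 log2 fold changes had the opposite sign, 21 were negative, and 1 was called, Ido1. Sp100 was then at -1.14, Irf1 at -0.63, Irf8 at -0.62, Zbp1 at -0.61 and Parp14 at -0.39. Ifit1 was at -0.16, Ifit2 at 0.68 and Ifit3 at 0.79. Lower levels in all 3 polyps than in their own surroundings were found for 11 of 31 genes, and for 18.6% of all tested genes. These were Dtx3l, Ido1, Ifih1, Irf1, Irf8, Irf9, Oas1a, Parp14, Sp100, Trim25 and Zbp1. Levels higher in all 3 polyps were found for 0, against 19.6% of all. The genes were also split by the promoter cores. The median log2 difference was 0.30, -1.52 and -0.35 in mice 1119, 1192 and 1199 for 10 tested genes with a response element core, and 0.08, -1.13 and -0.45 for 14 without. Genes with the core were the lower set in mouse 1192 and the higher set in the other mice. For the gamma-activated core the medians were -0.08, -0.70 and -0.28 for 8 genes with it and 0.25, -1.52 and -0.52 for 16 without, and the order turned in mouse 1119. These sets share genes, and the difference was not tested.

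Per kilobase of annotated exon, Ifit1 and Trim25 were the most abundant of the set in surrounding tissue, at 30.9 ± 9.4 and 28.8 ± 4.2 CPM per kilobase (mean ± SD, n = 3), which do not differ beyond their spread. Irf1 followed at 17.4 ± 4.22 and Irf7 at 15.9 ± 6.22. Ido1 stood at 8.12 ± 7.52 in surrounding tissue and 1.4 ± 0.711 in polyps. In polyps Trim25 was at 23.7 ± 2.84 and Ifit1 at 19.3 ± 11.8 CPM per kilobase, the latter with the wide spread that the polyp of mouse 1192 brings.

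Counts of 6 interferon genes were looked up. Ifng, Ifnb1, Ifna2, Ifna4, Ifnl2 and Ifnl3 had 0 counts in all 6 libraries, which allows levels of up to 0.214 to 0.676 CPM (3 counts, by library). Their receptors and the JAK and STAT genes were present. Of 15 tested genes for interferons, receptors and JAK-STAT signalling, 0 rose and 0 fell in edgeR, DESeq2 or limma-voom, with a median of -0.16. At an unadjusted edgeR p under 0.05, 1 rose and 1 fell, against 8.29% and 6.27% of all genes. Ifnlr1, the epithelial receptor for type III interferon, had 12.2, 11.5 and 16 CPM in the surrounding tissue of mice 1119, 1192 and 1199 and 20.7, 17.1 and 21.5 CPM in their polyps. All 3 polyps were above all surrounding samples, as in 9.84% of all genes, without a call (log2 fold change 0.59 ± 0.23, adjusted p = 0.287). The gamma receptor genes Ifngr1 and Ifngr2 were at -0.18 ± 0.16 and -0.16 ± 0.15, and the type I receptor genes Ifnar1 and Ifnar2 at -0.16 ± 0.18 and 1.19 ± 0.72. Of 9 tested genes for nucleic acid sensing and its signalling upstream of interferon, 0 rose and 0 fell in edgeR, with a median of -0.27. At an unadjusted edgeR p under 0.05 there were 0 and 0, and 0 were called by DESeq2 or limma-voom. Most of these genes encode adaptors, kinases and transcription factors, such as Mavs, Tbk1 and Irf3. The sensor genes Tlr7, Tlr9 and Cgas had too few counts to be tested.

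Other lists of interferon-induced genes were read from the same libraries, and were chosen with earlier results known. Of 43 further interferon-stimulated genes tested, 1 fell and 0 rose, with a median of -0.44 and per-mouse medians of 0.11, -0.83 and -0.48 in mice 1119, 1192 and 1199. The gene that fell was Samhd1, which depletes nucleotides, at 38.5, 47.8 and 73.5 CPM in surrounding tissue and 26.5, 25 and 28.4 CPM in polyps, in the same order of mice. Its groups do not overlap (log2 fold change -0.95 ± 0.20, adjusted p = 0.0444), and it was not called without any 1 of the mice or without the pairing. The interferon-inducible GTPases, which attack the vacuoles of intracellular pathogens, had per-mouse medians of -0.86, -2.50 and -1.45. Of 9 tested, 3 fell, namely Ifi47 (log2 fold change -1.98 ± 0.32, adjusted p = 0.0176), Irgm2 (log2 fold change -1.09 ± 0.21, adjusted p = 0.0349) and Gbp2 (log2 fold change -1.56 ± 0.33, adjusted p = 0.0474). The number called was 0 without the pairing and 1, 2 and 0 without mouse 1119, 1192 or 1199. Of the MHC class I and peptide loading genes, 1 of 13 fell, B2m, the light chain of class I molecules, with per-mouse medians of -0.25, -0.58 and -0.74. B2m had 139, 296 and 334 CPM in surrounding tissue and 97, 104 and 81.9 CPM in polyps, in the same order of mice. All of its polyps were below all surrounding samples (log2 fold change -1.35 ± 0.26, adjusted p = 0.0394), and it was not called without mouse 1192 or 1199 or without the pairing.

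**Figure D4:**
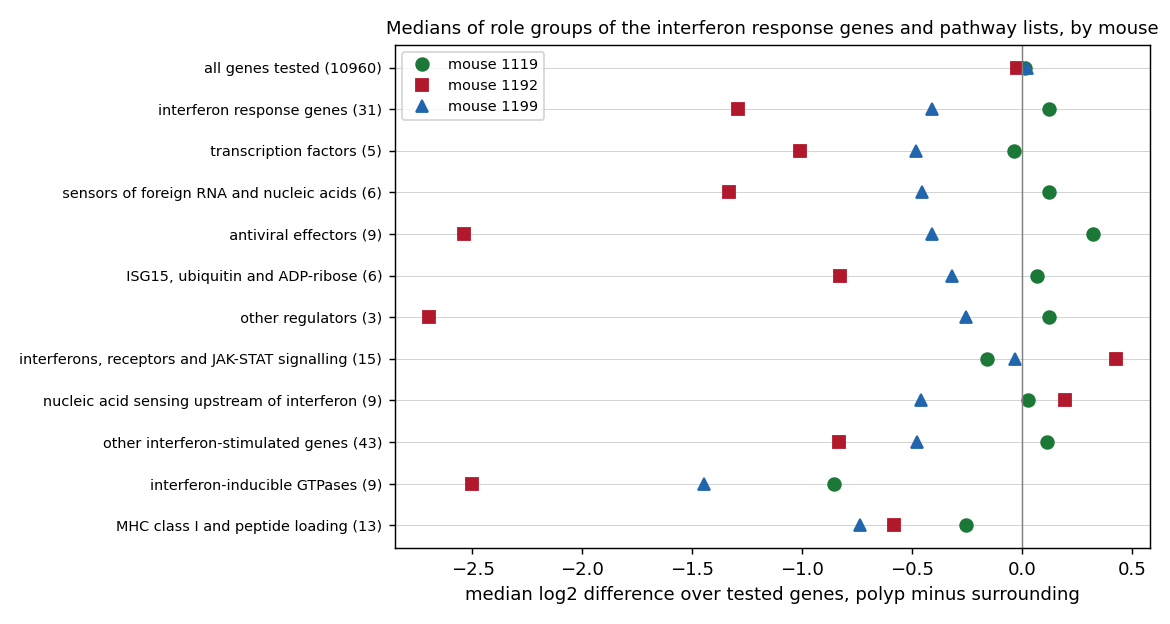
Median log2 difference between polyp and surrounding tissue (x axis) over the tested genes of each group shown, 1 symbol per mouse, with the number of genes tested in brackets. The role group of Ido1, Cxcl9 and Cxcl10 is not drawn. In mouse 1119 the medians were 0.12 for the interferon response genes, 0.32 for their antiviral effectors, -0.86 for the GTPases and -0.25 for MHC class I genes, and in mouse 1192 all 4 were negative.

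The tissue labels were read against marker lists. Epithelial markers were present in every library, with sums from 3115 to 5216 CPM in surrounding tissue and 5230 to 6916 CPM in polyps. The surrounding and polyp ranges did not overlap but nearly touched. Of 10 such markers 3 rose and 0 fell, and 2 estimates were negative, those of Cdx1 (-0.59) and Cdx2 (-0.29). Absorptive colonocyte markers ran from 12798 to 19108 CPM in surrounding tissue and 8874 to 13684 CPM in polyps, and 6 of 14 fell. Estimates of 3 were positive, and Krt20 was higher in each polyp than around it. Car1 and Emp1, the most abundant of these markers, were not called. Smooth muscle markers ran from 264 to 280.2 CPM in surrounding tissue and 63.7 to 145 CPM in polyps (2 of 8 fell), and fibroblast markers from 66.9 to 149 CPM in surrounding tissue and 214 to 545 CPM in polyps (4 of 8 rose). Macrophage and monocyte markers, whose cells express many of the genes described here, ran from 20.9 to 39.4 CPM in surrounding tissue and 36.4 to 44.2 CPM in polyps. These ranges overlap, and 0 of 8 tested were called. In mice 1119, 1192 and 1199, 0, 4 and 4 of these 8 were lower in the polyp. Lyz2 alone averaged 9.55 CPM in surrounding tissue and 17.3 CPM in polyps. Endothelial markers ran from 9.26 to 16.3 CPM in surrounding tissue and 14.6 to 42.5 CPM in polyps (0 of 5 tested called). Dendritic cell markers stayed between 0.74 and 7.68 CPM in all libraries, with Cd209a at 0 throughout, and B and plasma cell markers between 7.86 and 16.9, with Tnfrsf17 at 0. The part of these cell types in the interferon gene values was not tested.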

How the data were processed

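Per the labels' protocols, RNA from RNAlater-kept cecal tissue went through MICROBEnrich, a kit that takes out mammalian RNA, and a bacterial rRNA removal kit before paired-end Illumina sequencing. It is not certain that the counted mouse reads derive from RNA handled that way. The authors deposited raw counts per gene, 1 table per library, with no normalization (per the file headers and the whole-number values). Per the submitters' processing notes, HTSeq 0.5.3p9, TopHat2 2.0.7 and Bowtie 0.12.9 were used. Not given in the sources used here are settings, strand use, genome build and annotation. Symbols and exon lengths came from GENCODE M21 (32938 of 37991 identifiers named) and promoter windows from RefSeq. Samples were grouped by their titles, which give tissue and mouse.

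All genes were fitted with edgeR 4.0.16 (R 4.3.3; quasi-likelihood test, robust spread, TMM, filterByExpr with a minimum count of 10), two-sided, with the mouse as a block because the series is described as paired. P-values were adjusted by Benjamini-Hochberg over all 10960 genes and called under 0.05; the standard error is the log2 fold change divided by the root of the test statistic. Same-mouse samples deviated together weakly from their tissue means (correlation over genes 0.0719, 0.127 and 0.159 for mice 1119, 1192 and 1199). Between mice the correlations were -0.12 to -0.00294. Because each tissue was centred on its own mean, positive same-mouse values bring negative ones between mice, which add no separate evidence of pairing. Samples of a tissue were distinct (chi-square of 21.4 to 77.2 per degree of freedom). Per-mouse differences are of log2 CPM with a prior count of 2. The procedure was also run on simulated data with the same spread for every gene and no differences between mice. That setting does not cover libraries that stand apart, as here. The genes and lists were chosen with earlier results of these data known. Values for every sample are given for genes that passed, the 8 next by p and the 3 most abundant; of other lists, for up to 4 that passed and for preset receptors. A gene of the signalling list is not reported here. Alternatives were other normalizations, filters and spread estimates, DESeq2 1.42.0, limma-voom (limma 3.58.1), no pairing and leaving out each mouse. Figures were made with Python 3.11.15.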

Additional observations from a re-analysis of the deposited data

How the results depend on the processing

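The estimates for single interferon response genes kept their sign and their side of the threshold in 342 of 367 gene and alternative combinations. Only Ido1 was called in the main fit, so the side of the threshold had little room to change. Several alternatives also differ little from each other. Signs turned in 16 combinations, 10 of them without mouse 1192. The number of genes called varied with the setting. Without the pairing, edgeR called 51 genes higher and 36 lower of all genes (189 and 114 with it), and 0 interferon response genes, 0 further interferon-stimulated genes, 0 GTPases and 0 MHC class I genes lower. Without a filter on low counts the numbers in that order were 442, 311, 5, 7, 6 and 3, with DESeq2 326, 210, 2, 2, 5 and 3, and with limma-voom 299, 188, 2, 2, 3 and 3. With a mean of at least 5 CPM, 178 of all genes were called lower, 2 interferon response genes (Ido1 and Sp100), 2 further interferon-stimulated genes and 3 MHC class I genes. Further interferon-stimulated genes called lower numbered 2 with upper-quartile normalization and 0 without robust spread estimates. Leaving out 1 mouse at a time gave 45 to 153 genes higher and 21 to 128 lower, 0 to 1 interferon response genes lower, 0 to 0 further interferon-stimulated genes, 0 to 2 GTPases and 0 to 1 MHC class I genes. Signs turned for Bst2 without the pairing (-0.11) and with limma-voom (-0.27), and for Usp18 likewise (0.40 and 0.72). Leaving out mouse 1199 turned Bst2 and Eif2ak2 and leaving out mouse 1192 the others; ranges of the log2 fold change with 1 mouse left out were Stat2 -0.70 to 0.034, Dhx58 -1.73 to 0.34, Eif2ak2 -0.29 to 0.0029, Ifit2 -1.51 to 0.68, Ifit3 -1.87 to 0.79, Isg15 -1.52 to 0.22, Usp18 -1.73 to 1.12, Parp9 -0.32 to 0.11, Ifi35 -1.10 to 0.064, Xaf1 -2.03 to 0.23, Bst2 -0.41 to 0.43 and Cxcl9 -0.65 to 2.45. The cause was not tested. Scaling by library totals alone, an alternative chosen after seeing the data, put the median difference in mouse 1199 at 0.43, where the median of all genes moved to 0.83, so relative to all genes it was -0.40 against -0.43 with TMM. The same scaling gave -0.03 in mouse 1119 (all genes -0.14) and -0.92 in mouse 1192 (all genes 0.40). Relative to all genes these were 0.10 and -1.32, against 0.11 and -1.27 with TMM. Depth limits the genes with few counts, and samples of 3 mice limit all tests.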
